A study of Mus musculus with 15 samples.

Results

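The genes of the D-type cyclins and of the Cip/Kip and Ink4 inhibitors of cyclin-dependent kinases (CDKs) were examined for 3 histone marks in mouse liver. They were chosen by name and not by any measured value, though with earlier results of these data known. The set is Ccnd1, Ccnd2 and Ccnd3, then Cdkn1a, Cdkn1b and Cdkn1c, then Cdkn2a, Cdkn2b, Cdkn2c and Cdkn2d, which are 10 of the 21887 protein-coding genes on chromosomes 1 to 19, X and Y. Each gene with 5 kb on either side is called its window. A gene was marked in a library when at least 1 bp of its window lay in a region that the authors had called enriched in that library. H3K4me3 regions are called peaks and H3K27me3 regions, which are wider, islands.

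All mice were of the C57Bl/6 strain, and livers were taken at 8 to 12 weeks of age. They were wild type (WT) or Uhrf1hepKO (KO), a knockout of Uhrf1 in hepatocytes. The Cre driver is not given in the sources used here, nor is it stated whether libraries came from separate or pooled animals. H3K4me3 had 2 WT and 2 KO libraries at baseline, and the second of each genotype is labelled round 2. H3K27me3 had 1 WT and 1 KO library at baseline, and a round 3 series of WT livers at 0, 30, 40 and 96 h of regeneration, with 1 library a time. The 0 h library is also labelled baseline and is the second WT baseline replicate. H3K9me3 had 1 WT and 1 KO library at baseline, both of round 2. KO livers in regeneration were not analysed here.

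D-type cyclins bind and activate CDK4 and CDK6, which phosphorylate the retinoblastoma protein, release E2F factors and let a cell pass from G1 into S phase. Ink4 proteins bind these kinases directly and keep cyclin D away, whereas Cip/Kip proteins bind complexes of cyclins and CDKs. In liver, hepatocytes rest in G0 and re-enter the cycle after loss of tissue, and induction of cyclin D1 is a known step of that entry. H3K4me3 is found at active and poised promoters, H3K27me3 is laid down by Polycomb repressive complex 2, and the Ink4 locus is a classical Polycomb target.

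The 4 H3K4me3 lists held between 25714 and 73431 peaks, and the 6 H3K27me3 lists covered between 378 and 500 Mb. The 2 H3K4me3 libraries of round 2 carry an antibody tag naming H3K9me3 that conflicts with their titles. They were grouped by title, and had peaks in all 10 windows, 8 of which held no H3K9me3 region. The WT replicate 1 and KO H3K27me3 lists were made with the same control library, since 414 of 414 islands with identical bounds had equal control reads. The 0 h list rests on another control, with 0 of 157 equal against WT replicate 1 and 1 of 133 equal against 30 h, whereas the 30, 40 and 96 h lists shared one. As a check of the tissue, 8 of 8 hepatocyte markers had H3K4me3 in all 4 libraries and 0 of 8 had H3K27me3 in any list. Of the markers of other liver cells, 4 of 5 bile duct, 4 of 5 endothelial, 4 of 5 stellate, 3 of 4 macrophage and 4 of 5 lymphocyte genes carried H3K27me3 at 0 h, where 37.7% of all genes did. In WT replicate 1, where 30.1% of all genes did, the counts were 3, 1, 4, 2 and 3 in the same order of cell types. H3K4me3 in all 4 libraries was found at 2, 5, 2, 1 and 2 of these genes in that order, and at 63.0% of all genes, so it was not limited to hepatocyte markers. In whole liver a mark in few cells and a weak mark in many cannot be told apart. With 1 or 2 lists a group and no counts per gene, no test between genotypes or times was run, and the values below are descriptions. For H3K4me3 an exact two-sided permutation test of 2 against 2 libraries cannot give a p below 0.333.

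All 10 genes carried H3K4me3 in every library, and none was lost or gained in KO. For Cdkn1c in WT replicate 2 this rested on 143 bp of peak, 1.42 kb from the start. H3K27me3 divided the set. Ccnd3, Cdkn1b and Cdkn2c had none in any of the 6 lists, Cdkn2a and Cdkn2b lay in islands near the top of their lists at baseline, and Ccnd2 lay in a broad island. Ccnd1, Cdkn1a, Cdkn1c and Cdkn2d carried it in 3 lists or fewer. In KO the island over Ccnd2 was interrupted around the promoter and a small island beyond the 3′ end of Cdkn1a was missing, while Cdkn2a and Cdkn2b stayed covered. In WT regeneration the islands over Ccnd2 and Cdkn2a were broken, narrower or nearly absent at 30 and 40 h and whole at 96 h. The window of Cdkn2b was covered to 100% at 30 h, 52.3% at 40 h and 99.8% at 96 h. Of all genes marked at 0 h, 48.1% at 30 h and 52.1% at 40 h had a share at least 10 percentage points lower.

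**Figure D1:**
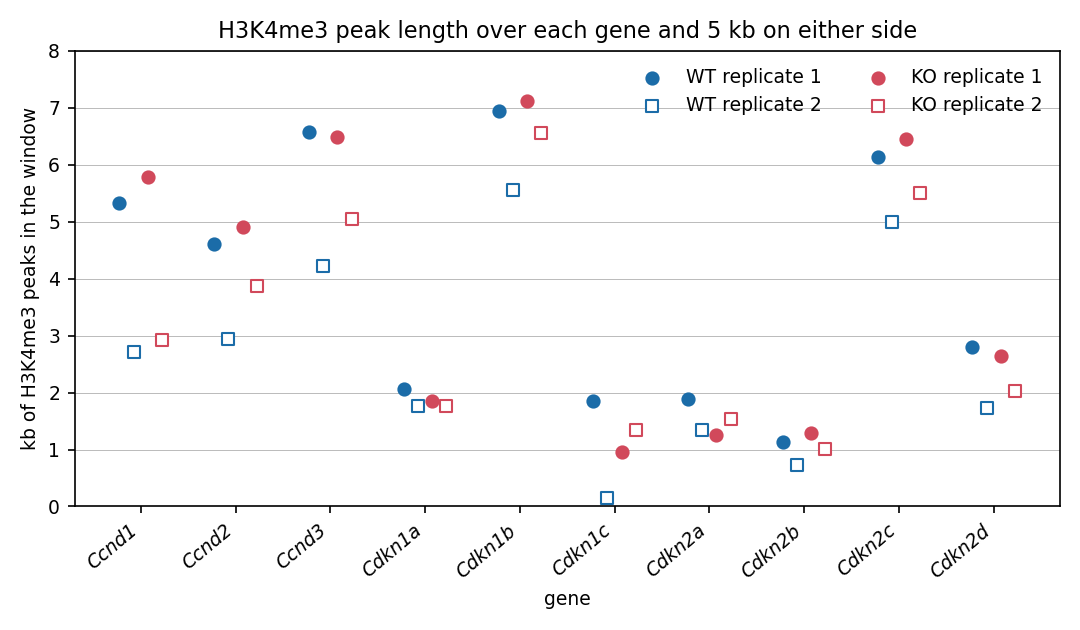
Kilobases of H3K4me3 peaks (y axis) in the window of each gene (x axis), 1 point per library, with WT in blue, KO in red, replicate 1 as filled circles and replicate 2 as open squares. Cdkn1b, Ccnd3 and Cdkn2c are highest and Cdkn1c and Cdkn2b are lowest, and WT and KO points overlap for every gene.

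The share of all genes with H3K4me3 in the window was 72.9% in WT replicate 1, 63.6% in WT replicate 2, 72.5% in KO replicate 1 and 66.5% in KO replicate 2. It was 63.0% for all 4 libraries together, against 10 of 10 here. Loss, meaning marked in both WT and in neither KO library, was called in 0.0144% of the 13866 genes that could lose the mark. Gain was called in 0.128% of all genes, so that 0 of 10 is near the background for both. In none of the 10 genes did both KO values lie on one side of both WT values for peak length. Both KO values lay above both WT values in 2.28% of all genes and below them in 0.260%. In replicate 1, 5 genes had more peak length in KO and 5 had less, and 41.5% of marked genes had more. In replicate 2, 9 had more and 1 had less, and 86.4% of marked genes had more. Between libraries of the same replicate number, a comparison added after the values were seen, KO had more peak length than WT in both pairs at 5 genes, Ccnd1, Ccnd2, Cdkn1b, Cdkn2b and Cdkn2c, and 23.9% of all genes did so. KO had less in both at Cdkn1a alone, and 5.27% of all genes did so. These shares of all genes include genes without peaks, which cannot differ. Of the 21887 genes, 16210 had a peak in either library of replicate 1. Lists of replicate 2 were the shorter, covering 21.4 Mb in WT and 25.3 Mb in KO against 45.5 and 44.9 Mb in replicate 1, and the part of this in the peak lengths was not tested.

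**Figure D2:**
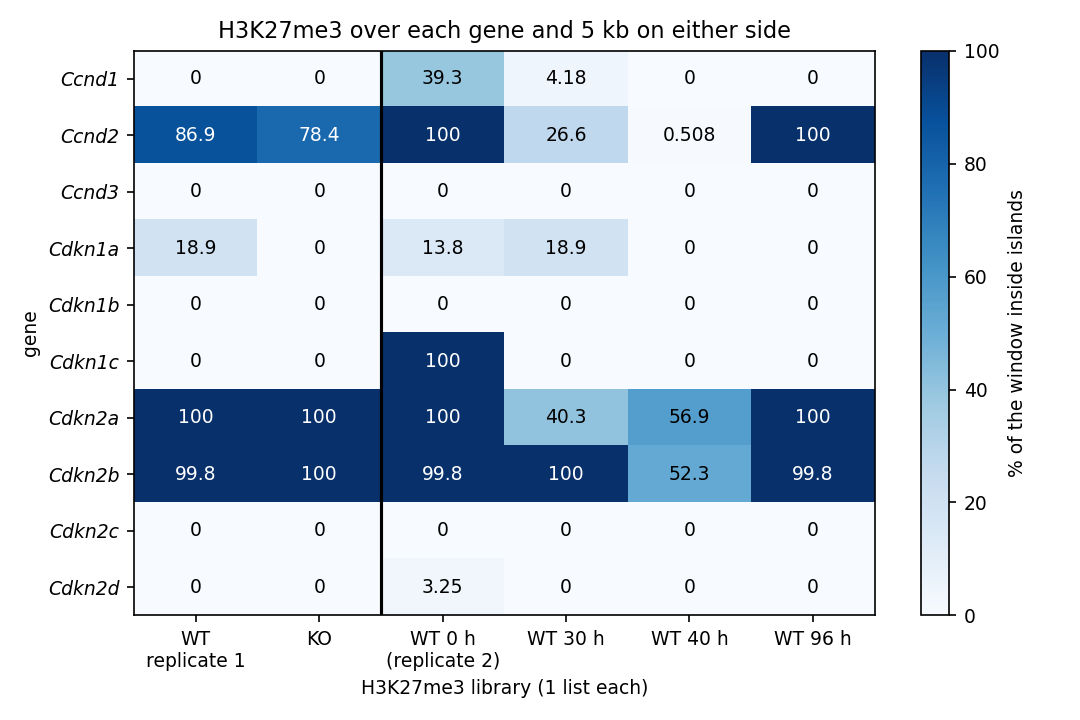
Percent of each window inside H3K27me3 islands (colour and printed value) for the 10 genes (rows) in the 6 libraries (columns). WT replicate 1 and KO, left of the black line, share a control library, and the regeneration series stands to the right. Cdkn2a, Cdkn2b and Ccnd2 are marked in all 6 columns, and Ccnd3, Cdkn1b and Cdkn2c in none.

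Among the D cyclins, Ccnd2 is the one with the most H3K27me3. It encodes cyclin D2 and lies on chromosome 6 at 127125162 to 127152188 (GRCm38). Of its window, 86.9% lay in islands in WT replicate 1, 100% at 0 h and 78.4% in KO. During regeneration this was 26.6% at 30 h, 0.508% at 40 h and 100% at 96 h. The gene was therefore covered in both WT baseline lists and at 96 h, and mostly free of islands at 30 and 40 h.

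The place of the islands shows more than the share. In WT replicate 1 a single island ran from 127125001 to 127203000 with a fold over control of 1.80, and at 0 h one ran from 127117001 to 127244000 with a fold of 1.78. Both took in the whole gene and its start at 127152188, the end with more H3K4me3. In KO there were instead 2 islands, from 127117001 to 127148000 (fold 1.96) and from 127156001 to 127271000 (fold 1.82). The 8.00 kb between them held the start. It also held every H3K4me3 peak of the window, 4609 and 2944 bp of peaks in WT replicates 1 and 2 and 4900 and 3865 bp in KO replicates 1 and 2. Each fold is ranked within its own list, at the 73.2 percentile for WT replicate 1, 75.9 for 0 h, and 87.9 and 76.2 for the KO islands. By the start alone (1 kb on either side), Ccnd2 was the only one of 3 genes of the set marked in both WT lists that was unmarked in KO. Of all 4319 genes so marked in WT, 6.71% were unmarked in KO. At 30 and 40 h the nearest island was 6.81 and 4.81 kb from the start. At 96 h a single island from 127117001 to 127180000 (fold 2.12, at the 92.1 percentile) covered it. The islands that reached the window had folds of 1.85 at 30 h and 1.52 at 40 h, at the 98.3 and 68.5 percentiles.

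**Figure D3:**
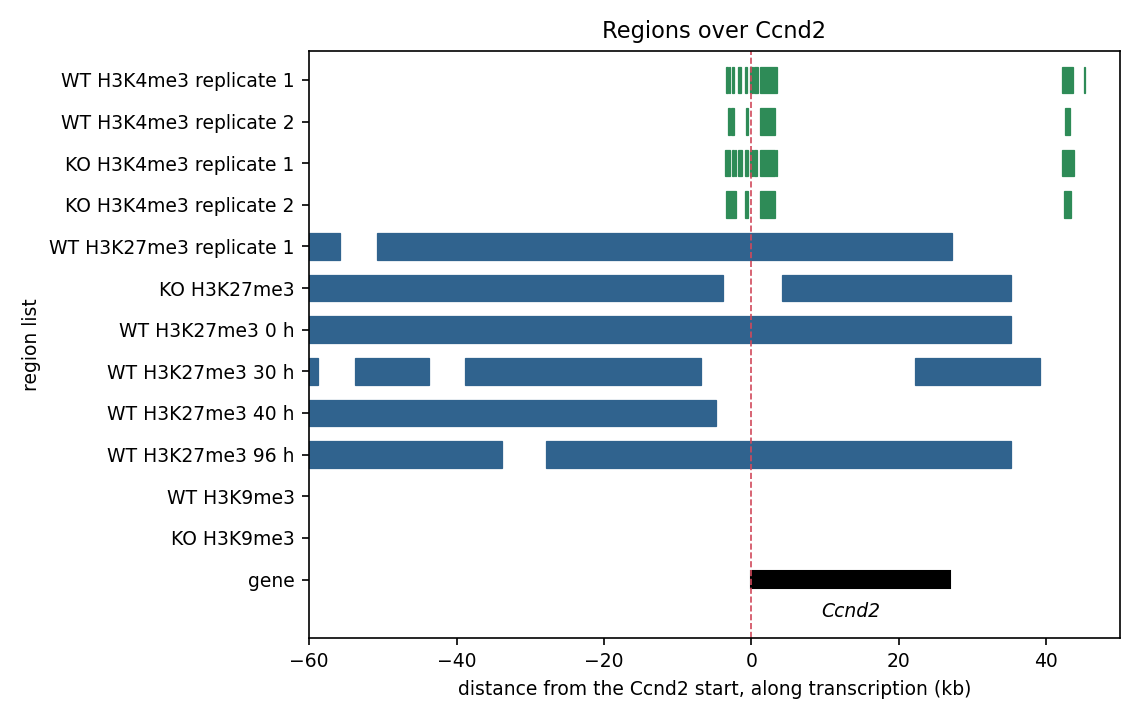
Called regions in each of the 12 lists (rows) around Ccnd2, by distance in kb from the Ccnd2 start along the direction of transcription. H3K4me3 is green and H3K27me3 is blue, and the gene is the black bar with its start as a dashed line. No H3K9me3 region falls in this span. The H3K4me3 peaks around the start lie inside the islands of WT replicate 1, 0 h and 96 h. They lie between islands in the KO and 30 h lists, and outside the only island of this span at 40 h.

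The H3K4me3 of Ccnd2 was spread over several peaks on both sides of the start. Its strongest peak lay inside the gene, from 1.18 to 3.48 kb past the start in WT replicate 1 (fold 8.46) and from 1.14 to 3.22 kb in KO replicate 1 (fold 9.73). In replicate 2 it had folds of 20.6 in WT and 23.9 in KO. These folds stood at the 63.9, 52.2, 70.1 and 53.4 percentiles of the lists of WT replicates 1 and 2 and KO replicates 1 and 2. The lncRNA gene 9330179D12Rik overlaps this end of Ccnd2, and the peaks cannot be assigned to one of them.

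Ccnd1, on chromosome 7 at 144929931 to 144939831, encodes cyclin D1, the D cyclin best known for its induction in regenerating liver. Its H3K4me3 peaks summed to 5321 and 2706 bp in WT replicates 1 and 2 and to 5780 and 2925 bp in KO replicates 1 and 2. They included a peak of 2086 to 2185 bp that lay across the start or within 50 bp of it and ran into the gene. Its folds were 11.4, 12.0, 14.2 and 24.7 in the same order. The start was taken as the gene end with more H3K4me3, so that a peak near it follows in part from that choice. H3K27me3 covered 39.3% of the window at 0 h and 4.18% at 30 h, and was absent from WT replicate 1, KO, 40 h and 96 h. The 0 h island, from 144937001 to 144982000, had a fold of 1.34, at the 11.0 percentile of its list, and is thus a weak one. It is not seen in the other WT baseline list, where the nearest island was 14.9 kb outside the window.

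Ccnd3, on chromosome 17 at 47505051 to 47599689, encodes cyclin D3 and was free of H3K27me3 and H3K9me3 in every list. The nearest island lay between 82.1 and 132 kb outside its window. Both of its annotated starts carried H3K4me3 in all 4 libraries. Peaks within 1 kb of the upstream start, at 47505051, held 1508, 1084, 1305 and 1429 bp in WT replicates 1 and 2 and KO replicates 1 and 2. Around the downstream start, at 47593467, they held 1374, 1229, 1345 and 1229 bp. The 2 starts thus had similar amounts. The window also takes in the end of Taf8, whose peaks count toward its total, and overlaps Bysl, where no peak lay inside the window.

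Among the Cip/Kip genes, Cdkn1a, on chromosome 17 at 29090979 to 29100722, encodes p21, which p53 induces after DNA damage. It has 2 annotated starts, and H3K4me3 told them apart. At the downstream start, 29093769, a peak began within 0.042 kb in all 4 libraries, with folds of 12.0 and 19.6 in WT replicates 1 and 2 and 9.73 and 32.3 in KO replicates 1 and 2. Peaks within 1 kb of it held 1019, 972, 998 and 959 bp in the same order, a narrow range. The upstream start, 29090979, had no peak within 1 kb in any library, and the nearest was 2.77 to 2.83 kb away. The 250 bases before each start are shown because they differ in CpG content as the starts differ in peaks. They are from the RefSeq promoter table of GRCm38.p6, 5′ to 3′ on the plus strand, at chr17:29090729-29090978 and chr17:29093519-29093768, with CpG dinucleotides in capitals.
Cdkn1a upstream start: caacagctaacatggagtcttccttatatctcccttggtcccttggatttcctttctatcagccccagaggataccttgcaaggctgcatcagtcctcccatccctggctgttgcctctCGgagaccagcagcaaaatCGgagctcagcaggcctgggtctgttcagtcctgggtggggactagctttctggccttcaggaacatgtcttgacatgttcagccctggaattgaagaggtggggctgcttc
Cdkn1a downstream start: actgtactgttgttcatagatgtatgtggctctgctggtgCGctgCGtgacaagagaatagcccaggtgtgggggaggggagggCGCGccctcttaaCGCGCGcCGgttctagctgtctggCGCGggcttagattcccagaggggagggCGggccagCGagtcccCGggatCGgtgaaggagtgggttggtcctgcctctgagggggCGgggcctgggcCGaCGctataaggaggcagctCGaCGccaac
The upstream stretch holds 2 CpGs and the downstream one 19, where the median of the 32851 promoters of the table is 6.

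No island touched the body of Cdkn1a. An island beyond its 3′ end covered 18.9% of the window in WT replicate 1, 13.8% at 0 h and 18.9% at 30 h, and there was none in KO, at 40 h or at 96 h. In WT replicate 1 it ran from 29102001 to 29109000 with a fold of 2.23. The 0 h island was 29103001 to 29109000 with a fold of 2.11, and the 30 h island 29102001 to 29110000 with a fold of 2.08. These folds stood at the 94.7, 93.4 and 99.7 percentiles of their lists. In KO the nearest island was 73.3 kb outside the window, and at 40 and 96 h it was 119 and 76.3 kb outside. Cdkn1a was the only gene of the set whose window was marked in both WT lists and not in KO, out of 4 so marked in WT. The share over all 6018 such genes was 5.28%. Since 2 WT lists of the regeneration series also lacked the island, its absence was not limited to KO. The same stretch held the only H3K9me3 of the window, peaks at 29102892 to 29103155 and 29104013 to 29105150 in WT and at 29102920 to 29103055 and 29103964 to 29105965 in KO. They were present in both genotypes, with folds of 3.35 and 3.50 in WT and 3.41 and 3.59 in KO. Within their lists these folds stood at the 38.4, 56.0, 41.5 and 59.7 percentiles.

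Cdkn1b, on chromosome 6 at 134920401 to 134925525, encodes p27, which holds cells in G0. It had the longest H3K4me3 of the set, 6953 and 5552 bp in WT replicates 1 and 2 and 7109 and 6559 bp in KO replicates 1 and 2. The nearest peak to its start had folds of 23.9, 68.5, 21.3 and 101 in that order. No island lay within its window in any list, and the nearest was 32.5 to 161 kb outside. A further peak, 6.11 to 8.94 kb past the start in WT replicate 1, reached the lncRNA gene Lockd and adds to the total. The 250 bases before the start, chr6:134920151-134920400 on the plus strand from the same table, are shown as a CpG-rich promoter without H3K27me3, with CpGs in capitals.
Cdkn1b: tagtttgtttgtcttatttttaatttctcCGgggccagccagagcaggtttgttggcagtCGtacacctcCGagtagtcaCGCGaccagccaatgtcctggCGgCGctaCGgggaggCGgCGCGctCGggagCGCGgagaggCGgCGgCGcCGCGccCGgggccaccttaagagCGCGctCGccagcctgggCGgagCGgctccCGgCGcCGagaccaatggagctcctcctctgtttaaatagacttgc
It holds 28 CpGs, a number that 93.2% of promoters do not exceed.

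Cdkn1c, on chromosome 7 at 143458339 to 143461059, encodes p57, an imprinted gene expressed from the maternal allele. It held 1852 and 143 bp of H3K4me3 peaks in WT replicates 1 and 2 and 957 and 1350 bp in KO replicates 1 and 2. This was the least of the set in WT replicate 2 and KO replicate 1, while Cdkn2b had the least in the other two. The WT values spanned the KO ones. The strongest fold in WT replicate 2 was 5.39, at the 14.5 percentile of its list. H3K27me3 covered all of its window at 0 h and none of it in the other 5 lists. The 0 h island ran from 143422001 to 143468000 with a fold of 1.72 and also reached Kcnq1, of the same imprinted cluster. In the other lists an island stopped 1.34 to 4.34 kb short of the window, and with 10 kb on either side Cdkn1c was marked in all 6. The lists thus differed at this gene in where an island ended.

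The Ink4 genes held both extremes. Cdkn2a and Cdkn2b lie side by side on chromosome 4, at 89274473 to 89294619 and 89306289 to 89311032, 11670 bp apart, and shared islands, so that they do not count as independent. Cdkn2b encodes p15. Cdkn2a encodes p16 from its downstream start and, in another reading frame, p19Arf from its upstream start. Cdkn2a was covered to 100% in WT replicate 1, at 0 h, in KO and at 96 h, and to 40.3% at 30 h and 56.9% at 40 h. Cdkn2b was covered to 99.8% in WT replicate 1 and at 0 h, 100% in KO and at 30 h, 52.3% at 40 h and 99.8% at 96 h.

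At baseline a single island held both genes. In WT replicate 1 it ran from 89199001 to 89316000 with a fold of 2.34. The 0 h island spanned 89234001 to 89316000 with a fold of 2.63, and the KO island 89237001 to 89317000 with a fold of 2.58. These folds stood at the 96.6, 99.3 and 99.6 percentiles of their lists, near the top of each. At 30 h it was broken into islands from 89233001 to 89281000 (fold 1.59) and from 89299001 to 89317000 (fold 1.70). The 18.0 kb between them held both Cdkn2a starts. In the 30 h list, whose median fold was 1.45, the folds of these islands stood at the 82.2 and 92.9 percentiles. At 40 h the break lay elsewhere. The islands ran from 89252001 to 89273000 (fold 1.82) and from 89286001 to 89309000 (fold 1.79). In the 40 h list, whose median fold was also 1.45, their folds stood at the 96.9 and 95.9 percentiles. The 13.0 kb between them held the downstream Cdkn2a start, and the Cdkn2b start was 2.03 kb outside an island. At 96 h a single island from 89236001 to 89316000 had a fold of 3.18, at the 99.7 percentile.

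**Figure D4:**
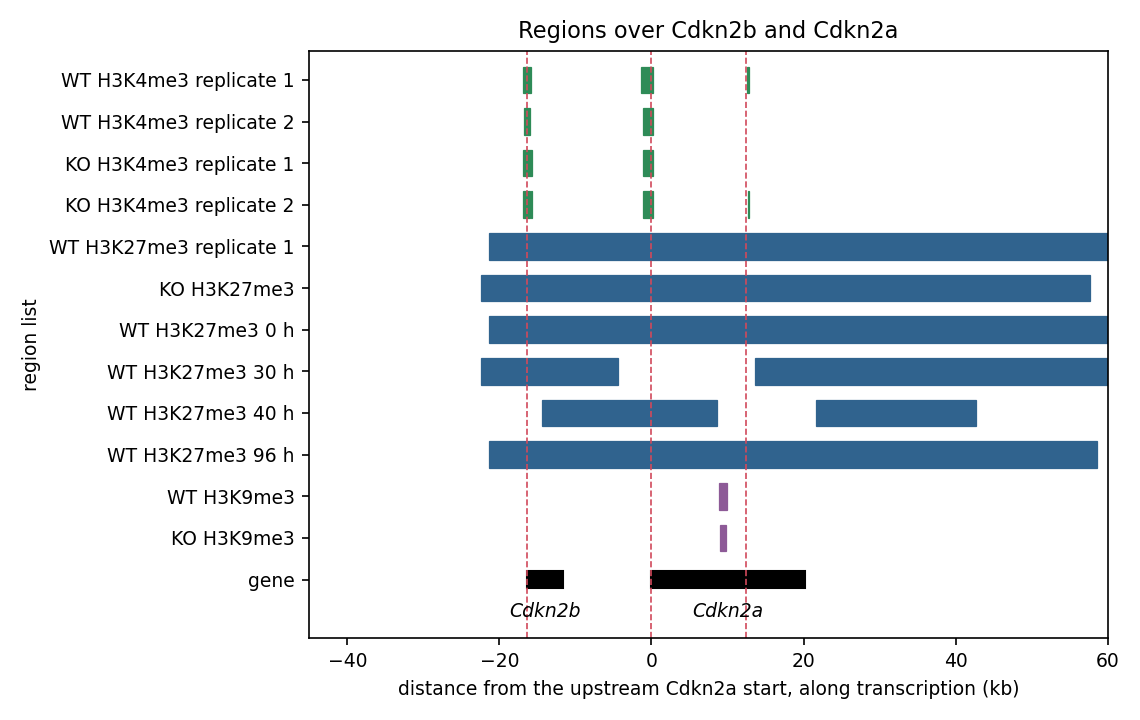
Called regions in each of the 12 lists (rows) over Cdkn2b and Cdkn2a, by distance in kb from the upstream Cdkn2a start along the direction of transcription. H3K4me3 is green, H3K27me3 blue and H3K9me3 purple, genes are black bars and dashed lines mark the 3 starts. A single island spans both genes in WT replicate 1, KO, 0 h and 96 h, and is broken at 30 and 40 h, at different places.

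H3K4me3 peaks sat at the upstream Cdkn2a start, 89294619, in all 4 libraries, with folds of 16.9 and 19.6 in WT replicates 1 and 2 and 12.6 and 37.3 in KO replicates 1 and 2. They held 1265, 1248, 1148 and 1250 bp within 1 kb of it. At the downstream start, 89282192, they held 318 bp in WT replicate 1, 151 bp in KO replicate 2 and 0 bp in the other two, and the peaks had folds of 3.79 and 4.35. The p19Arf start was thus marked at similar length in every library, and the p16 start weakly in 1 library of each genotype. At the Cdkn2b start peaks held 1131, 730, 1287 and 1010 bp in the same order of libraries. A lncRNA gene, Gm12610, runs from 89295180 to 89518621 and overlaps Cdkn2b, so the peaks there and next to the upstream Cdkn2a start cannot be assigned to a single gene. All these peaks lay inside the baseline islands in both genotypes. The 250 bases before each start are shown because the 3 starts share islands and differ in H3K4me3. They are from the same RefSeq table, 5′ to 3′ on the minus strand, at chr4:89294620-89294869, chr4:89282193-89282442 and chr4:89311033-89311282, with CpGs in capitals.
Cdkn2a upstream start: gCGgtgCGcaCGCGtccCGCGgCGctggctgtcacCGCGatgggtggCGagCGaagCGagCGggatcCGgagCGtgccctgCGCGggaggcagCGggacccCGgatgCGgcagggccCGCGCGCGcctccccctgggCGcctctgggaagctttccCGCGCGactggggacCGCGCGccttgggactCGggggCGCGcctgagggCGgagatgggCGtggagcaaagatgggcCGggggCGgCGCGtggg
Cdkn2a downstream start: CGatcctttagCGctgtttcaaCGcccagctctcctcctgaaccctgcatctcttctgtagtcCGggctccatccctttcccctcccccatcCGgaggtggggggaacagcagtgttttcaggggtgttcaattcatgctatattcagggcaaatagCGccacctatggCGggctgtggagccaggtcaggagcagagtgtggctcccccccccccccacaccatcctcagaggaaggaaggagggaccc
Cdkn2b: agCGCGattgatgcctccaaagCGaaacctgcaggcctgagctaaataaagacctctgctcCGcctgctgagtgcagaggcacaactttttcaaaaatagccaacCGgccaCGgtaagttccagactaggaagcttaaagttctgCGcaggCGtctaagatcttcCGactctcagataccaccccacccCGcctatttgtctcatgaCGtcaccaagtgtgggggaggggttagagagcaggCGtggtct
They hold 40, 7 and 12 CpGs, and 98.9% of all promoters have 40 or fewer. The CpG count was 1.08, 0.316 and 0.670 times that expected from the bases.

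**Figure D5:**
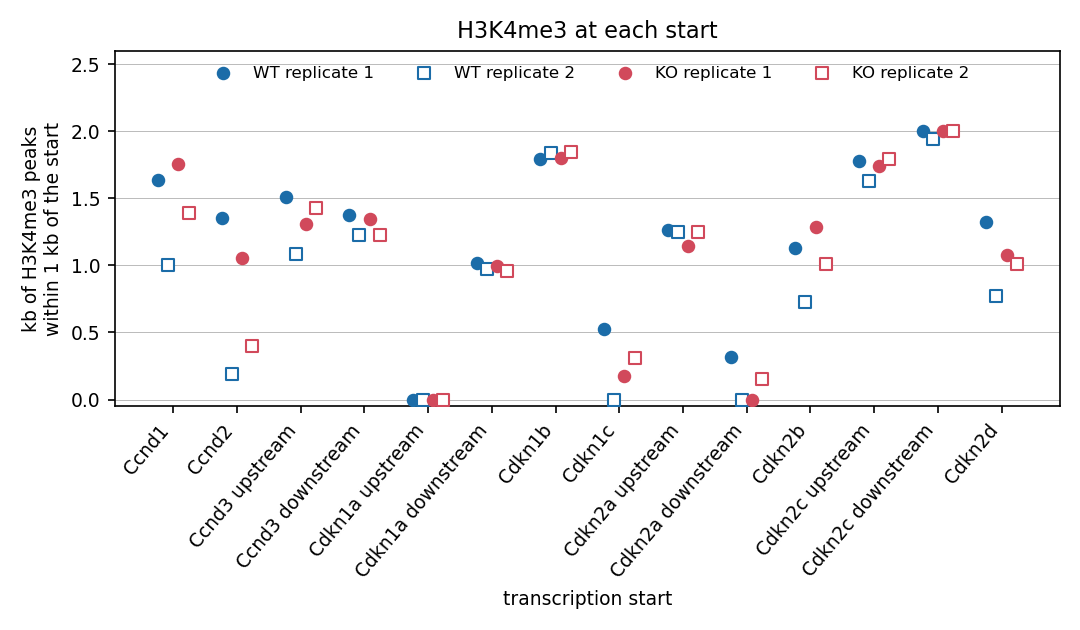
Kilobases of H3K4me3 peaks within 1 kb of each start (y axis) for the 14 starts of the 10 genes (x axis), 1 point per library, with WT in blue, KO in red, replicate 1 as filled circles and replicate 2 as open squares. The upstream Cdkn1a start is at 0 in all 4 libraries, the downstream Cdkn2a start is at 0 in 2, and the Cdkn1c start is at 0 in WT replicate 2. The Ccnd1, Ccnd2 and Cdkn1c starts are the gene ends with more H3K4me3, and the others are annotated.

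Turning to the other Ink4 genes, Cdkn2c, on chromosome 4 at 109660876 to 109666756, encodes p18 and resembled Cdkn1b. Its peaks summed to 6130 and 5003 bp in WT replicates 1 and 2 and 6451 and 5501 bp in KO replicates 1 and 2, part of which lay at the neighbouring lncRNA gene 9630013D21Rik. Its highest folds stood at the 99.6, 92.3, 96.8 and 94.7 percentiles of their lists, and no island lay within 79.9 kb of its window. Cdkn2d, on chromosome 9 at 21288459 to 21291421, encodes p19Ink4d. Its window, with peaks of the neighbour Kri1 included, held 2799, 1729, 2638 and 2024 bp of H3K4me3 in the same order. H3K27me3 reached 3.25% of it at 0 h only, from an island of fold 1.47 over the neighbour Ap1m2, and not the gene.

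RefSeq promoters were found for 7 of the 10 genes, with 11 starts. All 8 stretches with 10 or more CpGs had H3K4me3 within 1 kb in all 4 libraries, and so did 82.6% of such promoters in the table. The stretch with 2 CpGs, of Cdkn1a, had none, as had 83.3% of promoters with 0 to 3. Of 2 stretches with 4 to 9, where 31.1% of the table had the mark in all 4 libraries, the downstream Cdkn2c one had it in 4 libraries and the downstream Cdkn2a one in 2. The windows of the Cdkn2c starts overlap. Motifs were searched on both strands. GGGCGG, bound by Sp1, occurred in 7 of the 11 and in 32.7% of all promoters, and CCAAT in 3 and in 33.8%. TATAAA occurred in 0, against 12.4%. The cAMP response element TGACGTCA occurred only in Cdkn2b, against 1.55% of promoters, and the E2F motif TTTCCCGC only before the upstream Cdkn2a start, against 0.895%. The E2F motif TTTGGCGC occurred in 0, against 0.417%. No motif searched contains another, and a match is a description of the letters only.

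Counted over the set, H3K27me3 marked 4 genes in WT replicate 1, where 30.1% of all genes were marked, 7 at 0 h against 37.7%, and 3 in KO against 32.2%. Gain in KO, meaning marked there and in neither WT list, was called in 0 of 10 and in 1.36% of all genes. The mean share of the window inside islands was 30.6% over the 10 genes in WT replicate 1, 45.6% at 0 h and 27.8% in KO, where the means over all genes were 16.3%, 20.9% and 17.9%. Counted within 1 kb of a start, 3 genes were marked in WT replicate 1 against 21.7% of all genes, 5 at 0 h against 26.9% and 2 in KO against 22.4%. The genes found in KO, Cdkn2a and Cdkn2b, were marked at their starts in both WT lists too.

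Through regeneration, 5 genes were marked at 30 h against 27.9% of all genes, 3 at 40 h against 27.8% and 3 at 96 h against 34.7%. The 3 at 40 and 96 h were in both cases Ccnd2, Cdkn2a and Cdkn2b. The counts within 1 kb of a start were 1 at 30 h, Cdkn2b, against 17.0%, 1 at 40 h, Cdkn2a, against 16.5%, and 3 at 96 h against 24.1%. The mean share over the 10 windows was 19% at 30 h, 11.0% at 40 h and 30.0% at 96 h, and the mean of all 21887 genes at these times was 14.7%, 13.8% and 17.7%.

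Of the 7 genes marked at 0 h, 4 had a share at least 10 percentage points lower at 30 h, namely Ccnd1, Ccnd2, Cdkn1c and Cdkn2a, and 48.1% of all genes marked at 0 h had so too. At 40 h there were 6 of 7, with Cdkn1a and Cdkn2b added, against 52.1%. At 96 h there were 3 of 7, Ccnd1, Cdkn1a and Cdkn1c, against 36.5%. None of the 10 was at least 10 points higher than at 0 h, which 4.85%, 4.57% and 5.93% of all genes were at 30, 40 and 96 h. The 0 h list marks the most genes of the 6, and Ccnd1 and Cdkn1c were unmarked in the other WT baseline list. Measured against both WT baseline lists, 2 of 4 genes were lower at 30 h (Ccnd2 and Cdkn2a), 4 of 4 at 40 h and 1 of 4 at 96 h (Cdkn1a). Of the 6018 genes marked in both, 29.0%, 34.8% and 12.1% were lower at these times. Lists of 30 and 40 h covered 417 and 378 Mb of the genome, against 483 Mb at 0 h, 459 Mb at 96 h and 417 Mb in WT replicate 1. The factor that scaled control reads in the fold was taken as the median over islands of ChIP over control reads, divided by the fold. It was 0.369 at 30 h and 0.342 at 40 h, against 0.438 at 96 h with the same control. For WT replicate 1 and KO, which share another control, it was 0.576 and 0.642. The part of these differences in the gene values was not tested.

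A peak of both H3K4me3 libraries inside an H3K27me3 island was found in WT at Ccnd1, Ccnd2, Cdkn1c, Cdkn2a and Cdkn2b, 5 of 10 genes against 9.77% of all genes. In KO it was found at Cdkn2a and Cdkn2b, 2 of 10 against 8.41%. Ccnd1 and Cdkn1c entered through the 0 h list only. Ccnd2, which had both marks at the same place with either WT list, did not in KO, where its peaks lay in the gap between the islands.

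H3K9me3 marked Cdkn1a and Cdkn2a in WT and in KO, 2 of 10 genes in each. The share of all genes was 28.8% in WT, 29.4% in KO and 24.9% in both. In Cdkn2a it was a single peak inside the gene, from 89284637 to 89285687 in WT (fold 4.10) and from 89284804 to 89285549 in KO (fold 3.81), between the p19Arf and p16 starts. The other 8 genes had no H3K9me3 in either genotype.

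In 3 lists of genes that act with this set, counts with H3K27me3 stand beside shares of all genes of 30.1% in WT replicate 1, 37.7% at 0 h, 32.2% in KO, 27.9% at 30 h, 27.8% at 40 h and 34.7% at 96 h. Of 18 partner genes, the kinases, other cyclins and their activators, 17 had H3K4me3 in all 4 libraries, and islands marked 2 in WT replicate 1, 4 at 0 h, 2 in KO, 3 at 30 h, 2 at 40 h and 3 at 96 h. The exception for H3K4me3 was Ccna1, the germ-line cyclin A1, whose window was covered by H3K27me3 to 97.6% or more in all 6 lists. All 13 pocket protein and E2F genes had H3K4me3, with H3K27me3 at 3 in WT replicate 1, 5 at 0 h, 4 in KO, 2 at 30 h, 2 at 40 h and 4 at 96 h. E2f1, an activating E2F, was covered to 46.9% at 0 h and to 0% in the other 5 lists. E2f6 was covered to 15.8% or 19.7% in all 6 lists. All 15 upstream regulators had H3K4me3, with H3K27me3 at 4, 4, 3, 1, 3 and 5 in the same order of lists. Among them Bmi1, a Polycomb protein that represses the Ink4 locus, was itself covered to 69.5% in both WT baseline lists and 64.4% in KO. Its share was 0% at 30 h, 45.9% at 40 h and 69.5% at 96 h. Cbx7 differed, with 23.0% in WT replicate 1, 66.0% at 0 h and 46.1% in KO. It had 38.5% at 30 h, 29.1% at 40 h and 35.2% at 96 h. Mycn was covered to 94.7% at 0 h, 24.8% at 96 h and 0% elsewhere. Loss and gain in KO were called in 0 of these 46 genes for either mark, beside loss in 0.0144% of all genes that could lose H3K4me3 and 5.28% of those that could lose H3K27me3, and gain in 0.128% and 1.36% of all genes.

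Likeness to other genes was measured as the Euclidean distance, in percentage points, between the shares of the window inside islands over the 6 lists. Nearest to Cdkn2a were Spint3 (1.65), Hey1 (4.84) and Rgs2 (6.25), which were likewise lowest at 30 and 40 h. Nearest to Cdkn2b were Cd248 (0.382), Dusp2 (0.394) and Figla (0.684). Nearest to Ccnd2 were Fgf17 (17.9), Epop (20.3) and Pou3f3 (21.5), whose values at 40 h were all 0%. Since all 6 lists enter the distance, these shared values at 30 and 40 h follow in part from the selection. Nearest to Ccnd1 were Numbl, Drc3 and Plppr2, at distances of 4.19 to 4.22. Nearest to Cdkn1a were Ppp2r3c (12.1), Abcc9 (14.0) and Rnf180 (14.1). Of these, Abcc9 and Rnf180 were covered in KO, to 13.6% and 4.49%, unlike Cdkn1a. For Cdkn1c they were Arl5c, Asprv1 and Bglap2, all at a distance of 0, with ties taken by symbol. The order of presence and absence of Cdkn1a over the 6 lists was shared by 10 genes, itself included, or 0.0457% of all. That of Ccnd2, Cdkn2a and Cdkn2b, marked in all 6, was held by 19.1% of genes, and that of Ccnd3, Cdkn1b and Cdkn2c, marked in none, by 54.4%. The order of Cdkn1c and Cdkn2d, marked at 0 h only, was held by 3.61%, and that of Ccnd1, marked at 0 and 30 h, by 0.397%.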

How the data were processed

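Per the submitters' processing notes, the authors used FastQC 0.11.5, Trimmomatic, Picard, BWA, SICER and MACS2 on GRCm38.p4/mm10. No source used here gives other versions or any settings. Each library has its own list of called regions. The deposited H3K4me3 and H3K9me3 lists give each peak a score, a fold enrichment, the −log10 of its p-value and of its q-value, and a summit. The deposited H3K27me3 lists are SICER islands with raw ChIP and control read counts, a p-value, a fold over scaled control and a false discovery rate (FDR, a q-value). Folds are the authors' and were used only within a list.

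Chromosomes 1 to 19, X and Y were analysed. Islands with an FDR above 0.01 were dropped, namely 417, 604, 625 and 702 at 0, 30, 40 and 96 h. Bounds came from RefSeq (GRCm38.p6), of the same build. Starts came from the RefSeq promoter table for 17492 genes. For 2815 others the gene end with more H3K4me3 was used, as for Ccnd1, Ccnd2 and Cdkn1c. For 1580 genes with equal H3K4me3 at both ends, both were used. These count in the shares of all genes within 1 kb of a start. Broad peaks served for H3K9me3. The genes and lists were chosen with earlier results of these data known. All 10 genes are described, and the 3 nearest genes were named for likeness. Overlap code was tested on simulated regions. Read depth per library is not held in the lists, so no interval is given, and no test between groups was run. Alternatives were other windows, stricter or looser region filters, lists cut to equal length, and leaving out libraries. Python 3.11.15, numpy 2.4.6, pandas 2.3.3 and matplotlib 3.10.9 were used.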

Additional observations from a re-analysis of the deposited data

How the results depend on the processing

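Of 124 counts recomputed under an alternative, 103 stayed within 1.5 times of the reported count. These include counts of 0 that stayed at 0, and an equal count can name other genes. Within 1 kb of the start the 1 gene lost for H3K27me3 in KO was Ccnd2 in place of Cdkn1a. With gene bounds only, 0 genes lost H3K27me3 in KO, 3 were marked at 30 h, and 1 had H3K9me3 in each genotype. Within 1 kb of the start, 1 gene was marked with H3K27me3 at 30 h, 1 at 40 h, and 0 with H3K9me3 in either genotype. With islands of fold 2 or more, 3 genes were marked at 0 h, 1 at 30 h and 0 at 40 h, and 2 had both marks in WT. H3K9me3 was at 0 in WT and KO at a q-value of 1e-05 or below, and also when at least 10% of the window was required. Leaving out 1 WT baseline list gave 1 to 4 genes lost for H3K27me3 in KO and 3 to 5 with both marks in WT. Without WT replicate 1 the 4 lost were Ccnd1, Cdkn1a, Cdkn1c and Cdkn2d, and without the 0 h list Ccnd1 and Cdkn1c left the genes with both marks. Against both WT baseline lists, a comparison added after the data were seen, 2 genes were lower at 30 h and 1 at 96 h. Genes with H3K4me3 in all 4 libraries were 9 within 1 kb of the start, and also when at least 200 bp of peaks were required. Counts of H3K4me3 lost or gained were 0 whichever library was left out. The lists hold no depth, and 1 KO and 1 library a time give no spread.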
